A study of Mus musculus with 8 samples.

Results

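The response of Ikbke-/- fibroblasts to B-DNA was read from 2 of the 8 arrays of the series, chosen by their genotype and treatment labels alone. Embryonic fibroblasts of genotype Tbk1+/+ Ikbke-/- were transfected for 4 h with B-DNA, the synthetic double-stranded DNA poly(dA-dT)·poly(dT-dA), or were mock transfected for 4 h. The other 6 arrays hold the same pair of treatments in Tbk1-/- Ikbke-/-, Tbk1-/- (Ikbke+/+) and wild-type (WT, Tbk1+/+ Ikbke+/+) fibroblasts, and all cells carry the strain label C57BL/6 x 129Ola. Each group is 1 array, so the pair has no replicates, no ratio within it was tested, and no ratio can be set against a spread between cultures. Whether an array holds 1 embryo, a line or a pool is not given in the sources used here.

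Tbk1 and Ikbke encode related kinases that phosphorylate the transcription factors Irf3 and Irf7 when nucleic acid is sensed in the cytosol. Irf3 and Irf7 switch on the interferon beta gene, and secreted interferon then acts back on the cells through its receptor, the Jak kinases and a complex that holds Stat2 and Irf9. That complex binds the interferon-stimulated response element (ISRE) in front of genes whose products block viral growth, and the Tbk1+/+ Ikbke-/- cells ask what B-DNA does where Tbk1 is the kinase of the pair that remains.

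Signals are array intensities per probe set on a linear scale, multiplied on each array so that the trimmed mean is 500. The factor was 2.47 for the Ikbke-/- B-DNA array and 2.11 for the Ikbke-/- mock array, and the factors of the other 6 arrays lay between 1.96 and 3.58. For ratios, signals below 122 were lifted to that value, the floor, and the resulting fold is a bound, written "at least". Counted genes differed by 2-fold or more between the arrays and reached 244 on the array with the higher signal. The floor was reached by 63.6% of the 12393 genes on the B-DNA array and by 61.8% on the mock array. The ratio of 3' to 5' signal, a sign of RNA quality, was 0.853 after B-DNA and 0.916 after mock for Gapdh, and 1.06 after B-DNA and 0.998 after mock for Actb.

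The labels were set against marker genes. Of 17 fibroblast markers, 16 reached 244 on both Ikbke-/- arrays, with Col1a2 at 31637 after B-DNA and 27610.2 after mock. Of 22 leukocyte and macrophage markers, 1 reached 244 on each, Csf1r at 260.0 after B-DNA and 245 after mock, and 14 lay under the floor on both. Their summed signal was 2039.5 after B-DNA and 1709.6 after mock in Ikbke-/- cells, against 6560.3 after B-DNA and 22809 after mock in WT cells. Xist, the RNA that silences an X chromosome in females, read 161 after B-DNA and 138 after mock in Ikbke-/- cells, against 3766 after B-DNA and 3002 after mock in WT cells. Comparisons of Ikbke-/- with WT cells therefore also set arrays of unequal leukocyte RNA and Xist level side by side, and the part of these in any difference was not tested. In bulk RNA, fewer cells of a type and less RNA per cell cannot be told apart. Ikbke itself lay under the floor on all 8 arrays, so it does not check the label, and Tbk1 read 910.0 after B-DNA and 472 after mock, 1.93-fold, just short of the 2-fold limit. The Tbk1 probe set read 389.6 after B-DNA and 290.0 after mock in Tbk1-/- Ikbke-/- cells, 305 after B-DNA and 226 after mock in Tbk1-/- cells and 989 after B-DNA and 501 after mock in WT cells.

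The response to B-DNA had a long upward tail and a short downward one. Of 12393 genes, 342 were counted as higher after B-DNA (2.76%) and 158 as lower (1.27%). Among the higher genes, 8 were 64-fold or more above mock, 31 were 16-fold to under 64-fold, 91 were 4-fold to under 16-fold and 212 were under 4-fold. No lower gene reached more than 4-fold. All 8 genes at 64-fold or more and 28 of the 31 in the next class stand on 1 or more of the 46 gene lists used below, which were drawn up with earlier results of these data known. For 88 of the higher genes the mock signal lay under the floor, and for 29 of the lower genes the B-DNA signal did.

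**Figure D1:**
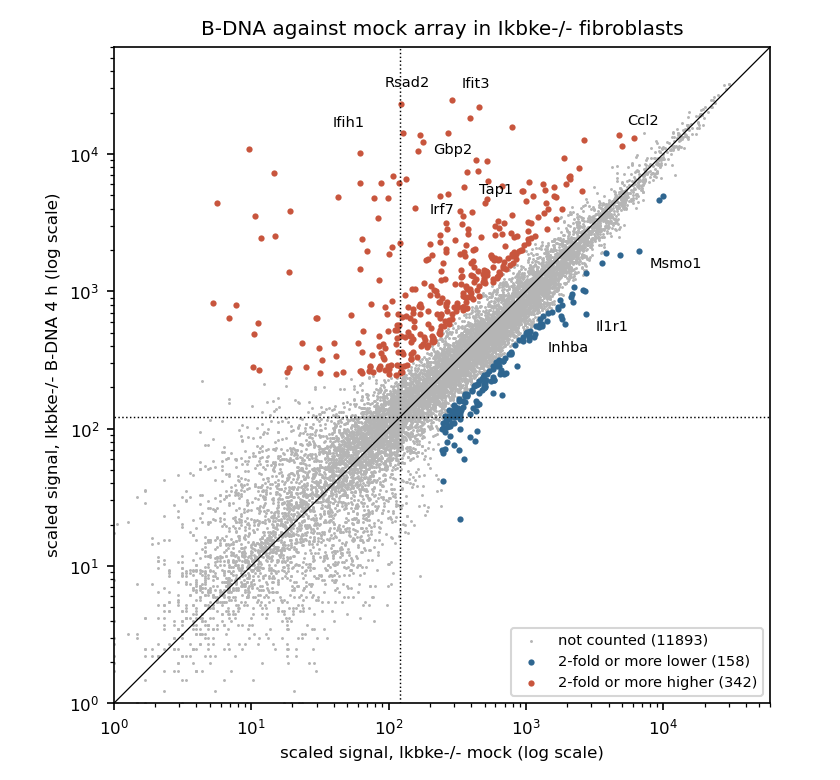
Each point is 1 of 12393 genes, with its scaled signal on the Ikbke-/- B-DNA array (vertical, log scale) and on the Ikbke-/- mock array (horizontal, log scale); dotted lines mark the floor of 122, the solid line marks equal signals, and signals under 1 are drawn at 1. The 342 higher genes reach far above the line, while the 158 lower genes stay close beneath it.

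The split between higher and lower calls depends on the scaling. When the deposited values were left unscaled, which moves the median log2 ratio of the measured genes to -0.32 (-0.10 with scaling), 271 genes were higher and 425 lower, so that 38.9% of the calls were higher (68.4% with scaling). Of 170 counted genes that the naming rule picked, 18 lost their call there, all of them higher genes: Apaf1, Azi2, Bbc3, Bcl2l11, Ccl4, Cd74, Fzd7, H2-K1, Ifitm3, Il13ra1, Il15ra, Il18, Inhbb, Parp8, Plat, Susd6, Vcam1 and Wnt5a. With the median ratio of all probe sets of a gene 25 lost it, among them Tap1, H2-D1, Irf5, Dhx58, Bad, Vcam1, Lss and Dnajc1. The 2-fold limit cuts through a dense range of ratios. On the higher side Susd6 (log2 ratio 1.003), Il15ra (1.005) and Plat (1.01) lay just inside, and Sgk3 (0.996), Pdcd2 (0.994) and Clic4 (0.993) just outside. On the lower side Eif2b4 (-1.0003), Gas1 (-1.0005) and Tbl2 (-1.001) lay just inside, and Slc25a13 (-0.9996), Celf4 (-0.997) and Fxyd5 (-0.996) just outside.

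In the chain that carries the interferon signal, counted genes lay mostly among the transcription factors and the inhibitors. Among 14 interferons, receptors and Jak kinases, 1 was counted as higher, Jak2, a kinase of cytokine receptors, at 1291 after B-DNA and 416 after mock, 3.11-fold higher. The interferon beta gene Ifnb1 read 194 after B-DNA and under the floor after mock, and its higher signal is short of 244, so it was not counted. The receptor subunits stayed within 2-fold, with Ifnar1 at 703 after B-DNA and 619 after mock and Ifnar2 at 867 after B-DNA and 979 after mock. Jak1 (3177 after B-DNA and 3094 after mock) and Tyk2 (385 after B-DNA and 359 after mock), the kinases bound to those subunits, read nearly alike on both arrays.

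Of 8 interferon regulatory factors on the array, 5 were higher and none lower, with a median log2 ratio of 1.68 (0 over all genes). Irf7, which amplifies interferon production, read 4045 after B-DNA and 156 after mock, 25.9-fold higher. Irf9, the DNA-binding partner of the Stat proteins, read 1422 after B-DNA and 335 after mock, 4.25-fold higher. Irf1, a factor also driven by NF-kB, read 4379 after B-DNA and 1406 after mock, 3.11-fold higher. Irf2 (log2 ratio 1.81) and Irf5 (1.72) completed the 5, while Irf3, the factor already present in resting cells, read 1068 after B-DNA and 823 after mock. Its other probe sets differed. The first read under the floor after B-DNA and 289 after mock, a log2 ratio of -1.24 or lower, and the second had 0.35. Stat2 was the 1 of 6 Stat genes that was counted, at 2282 after B-DNA and 238 after mock, 9.60-fold higher, and Stat3 read 2273 after B-DNA and 2093 after mock.

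Among inhibitors of the same chain, 3 of 17 genes were higher (17.6%, against 2.76% of all genes) and none lower. The list median was 0.02, and 7 of the 17 had a log2 ratio below 0. Usp18, a protease that strips Isg15 from proteins and blocks the interferon receptor, read 12216 after B-DNA and 178 after mock, 68.6-fold higher. Socs1, an inhibitor of the Jak kinases, read 2216 after B-DNA and 200.1 after mock, 11.1-fold higher, and its relative Socs2 read 923 after B-DNA and 351 after mock. Socs3 (559 after B-DNA and 787 after mock) and Socs5 (1309 after B-DNA and 2608 after mock) had lower signals after B-DNA that did not reach the 2-fold limit. Of 9 genes around the Tbk1 kinase, Azi2, an adaptor that binds Tbk1, was the 1 counted, at 2417 after B-DNA and 1043 after mock, 2.32-fold higher. It was not counted without further scaling. Sting1, the adaptor of cytosolic DNA sensing, read 307 after B-DNA and 172 after mock and was not counted.

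Sensors of RNA stood among the largest ratios. Of 17 genes of RNA and Toll-like sensing, 7 were higher (41.2%, against 2.76% of all genes) and none lower. Ifih1, which binds long double-stranded RNA, read 14101 after B-DNA and 128 after mock, 110.1-fold higher. Tlr3, its endosomal counterpart, read 2427 after B-DNA and under the floor after mock, at least 19.9-fold higher. Trim25, a ubiquitin ligase that acts on the RNA sensor Rig-I, read 6299 after B-DNA and 528 after mock, 11.9-fold higher. The others were Tlr2 (log2 ratio 2.51), Dhx58 (at least 2.26), the adaptor Myd88 (2.19) and Rnf135 (1.99). Tlr4 (244 after B-DNA and 322 after mock), the receptor for bacterial lipopolysaccharide, and Traf6 (273 after B-DNA and 308 after mock) were not counted.

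Of 13 genes of DNA sensing and metabolism, 4 were higher (30.8%, against 2.76% of all genes) and none lower. Zbp1, a sensor of Z-form nucleic acid, read 793 after B-DNA and under the floor after mock, at least 6.49-fold higher. Adar, which edits double-stranded RNA, read 1859.9 after B-DNA and 331 after mock, 5.62-fold higher, and Ifi204, of the DNA-binding Ifi200 family, read 419 after B-DNA and under the floor after mock, at least 3.43-fold higher. Samhd1, which degrades DNA building blocks, read 7343 after B-DNA and 371 after mock, 19.8-fold higher, and another Samhd1 probe set read 4898 after B-DNA and 301 after mock. A further pair of Samhd1 probe sets read 719.8 and 620.0 after B-DNA and 647 and 532 after mock. Ddx41, Mre11a, Hmgb2, Polr3a and Xrcc6 had log2 ratios between -0.48 and 0.33.

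Antiviral effectors made up the top of the response. In the 6 effector lists together (Ifit, oligoadenylate synthetase, Mx with Rsad2 and Cmpk2, GTPase, Isg15 and other antiviral genes), 51 of 65 genes were higher, none was lower, and the median log2 ratio came to 3.14. Rsad2, the enzyme viperin that makes a chain-terminating nucleotide, had the highest ratio on the array and read 23165 after B-DNA and 123 after mock, 188-fold higher. Cmpk2, a nucleotide kinase encoded beside it, read 7233 after B-DNA and under the floor after mock, at least 59.2-fold higher. All 3 Ifit genes, whose products bind viral RNA ends, were higher. Ifit3 read 24582 after B-DNA and 288 after mock, 85.4-fold higher, Ifit1 read 21838 after B-DNA and 454 after mock, 48.1-fold higher, and Ifit2 read 10861 after B-DNA and under the floor after mock, at least 88.9-fold higher. Several of these mock signals lie at or near the floor, so the size of the ratios depends on where the floor is set.

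Mx1, a GTPase that traps viral nucleocapsids, read 10191 after B-DNA and under the floor after mock, at least 83.4-fold higher, and Mx2 read 3826 after B-DNA and under the floor after mock, at least 31.3-fold higher. Of 7 oligoadenylate synthetase genes, whose products activate RNase L, 5 were higher. All 5 had mock signals under the floor: Oasl1 was at least 50.2-fold higher, Oasl2 at least 39.6-fold higher, Oas1a at least 19.7-fold higher, Oas1b at least 11.8-fold higher and Oas2 at least 4.22-fold higher. Oas3 read 156 after B-DNA and under the floor after mock and was not counted. Of 4 genes of Isg15 conjugation, 3 were higher: Usp18 and Trim25 as above and Uba7, the E1 enzyme of the pathway, at 786 after B-DNA and 168 after mock, 4.68-fold higher. Other Uba7 probe sets gave log2 ratios of at least 1.31 and of 0.71.

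The interferon-induced GTPases, which attack the vacuoles of intracellular pathogens, were higher in 9 of 10 cases, with a median log2 ratio of 5.28. Gbp2 read 13755 after B-DNA and 171 after mock, 80.5-fold higher, Iigp1 read 10549.8 after B-DNA and 163 after mock, 64.9-fold higher, and Igtp read 14114 after B-DNA and 271 after mock, 52.1-fold higher. Irgm2 read 6589.9 after B-DNA and 134 after mock, 49.03-fold higher, and Irgm1 read 9103 after B-DNA and 436 after mock, 20.9-fold higher. The other 4 had mock signals under the floor: Ifi47 was at least 39.1-fold higher, Gbp7 at least 38.9-fold higher, Gbp3 at least 27.9-fold higher and Gbp6 at least 20.6-fold higher. Gbp2b, not on the list, was at least 56.96-fold higher.

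Among 37 other antiviral and interferon-stimulated genes, 27 were higher and none lower. Cd274, the immune checkpoint ligand PD-L1, read 4425 after B-DNA and under the floor after mock, at least 36.2-fold higher, and Slfn8, of the Schlafen family, read 3531 after B-DNA and under the floor after mock, at least 28.9-fold higher. Pml, which builds nuclear bodies, was at least 17.2-fold higher, and Bst2, which tethers budding virus to the cell surface, was at least 9.82-fold higher. Eif2ak2, the kinase PKR that halts translation when it meets double-stranded RNA, read 2015 after B-DNA and 261 after mock, 7.71-fold higher. The exonuclease gene Isg20 (2820.4 after B-DNA and 269 after mock) and the galectin gene Lgals9 (3870.2 after B-DNA and 329 after mock) were counted too. Ifitm3, which blocks viral fusion, began high and read 13002 after B-DNA and 6115 after mock, 2.13-fold higher. Its neighbour in the family Ifitm2 read 7428 after B-DNA and 6222 after mock. Sp110 (168 after B-DNA and 126 after mock), Slfn4 (200.4 after B-DNA and under the floor after mock) and Ifi27l2a (156 after B-DNA and under the floor after mock) stayed under the minimum of 244.

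Of 12 genes of the PARP family, whose enzymes attach ADP-ribose, 6 were higher (50%, against 2.76% of all genes). Parp14 was at least 50.1-fold higher, Parp12 read 4912 after B-DNA and 236 after mock, 20.9-fold higher, and Parp9 read 7497 after B-DNA and 451 after mock, 16.6-fold higher. Parp1, the DNA repair member, read 638 after B-DNA and 637 after mock, so the family was split. The Trim family of ubiquitin ligases was split likewise, with 6 of 26 higher (23.1%) and a median of -0.03. Trim30a (4.23), Trim25 (3.58), Trim21 (3.18), Trim34a (2.82), Trim30d (at least 2.76) and Trim26 (2.00) were the 6, while Trim28 read 1753 after B-DNA and 2141 after mock and Trim33 551 after B-DNA and 1019 after mock.

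**Figure D2:**
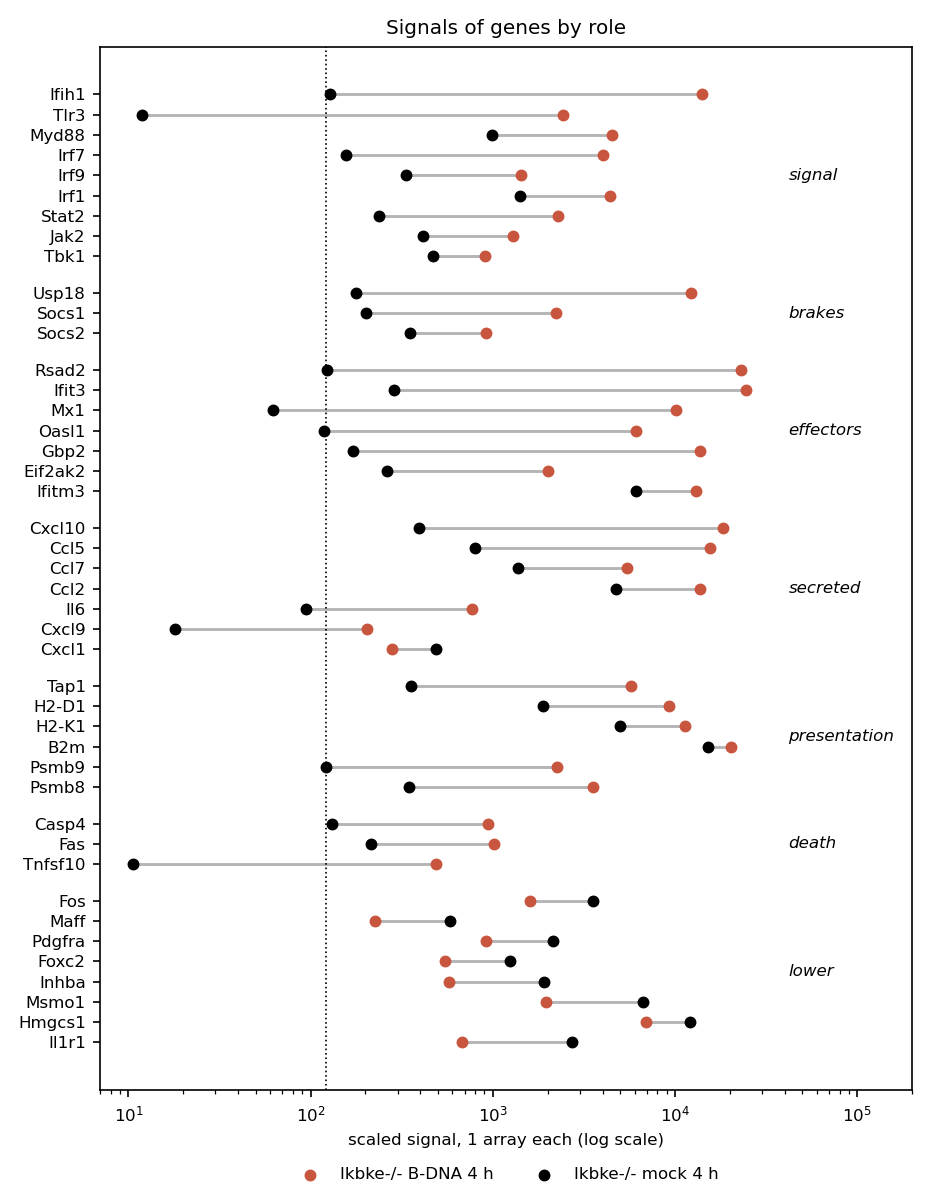
Scaled signals on the Ikbke-/- B-DNA array (red) and the Ikbke-/- mock array (black) for 43 genes by role, on a log axis with the floor of 122 dotted; each point is 1 array, so there are no error bars. Rsad2 lies at 23165 after B-DNA and 123 after mock, while B2m and Ifitm3 have both points high, and the genes in the lowest block have the B-DNA point on the left.

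The sequences in front of the highest genes were examined for the ISRE core, taken as GAAA, any 2 bases and GAAA, on either strand. Windows of 300 bases, from 250 before to 50 after each RefSeq gene start (GRCm38.p6), were at hand for 9887 of the 12393 genes, 256 of the 342 higher ones and 131 of the 158 lower ones. The stretches below are from 8 of the genes with the highest ratios, each with a single window and an ISRE core before the start. Capitals mark the core as it reads on the strand of the gene.
Rsad2 (chr12:26456523-26456612, minus strand): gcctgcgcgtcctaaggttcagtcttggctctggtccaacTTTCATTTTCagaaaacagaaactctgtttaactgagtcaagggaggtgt
Ifit3 (chr19:34583333-34583456, plus strand): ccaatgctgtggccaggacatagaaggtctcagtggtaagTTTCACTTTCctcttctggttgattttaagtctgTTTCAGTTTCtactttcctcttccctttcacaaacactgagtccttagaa
Gbp2 (chr3:142620564-142620653, plus strand): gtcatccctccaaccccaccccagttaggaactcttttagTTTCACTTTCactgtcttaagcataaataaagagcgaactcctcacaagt
Gbp2b (chr3:142594670-142594759, plus strand): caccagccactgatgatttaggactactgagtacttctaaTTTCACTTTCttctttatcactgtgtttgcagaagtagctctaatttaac
Igtp (chr11:58199482-58199555, plus strand): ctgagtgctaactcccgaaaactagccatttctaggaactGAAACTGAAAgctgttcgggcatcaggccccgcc
Irgm2 (chr11:58214873-58214962, plus strand): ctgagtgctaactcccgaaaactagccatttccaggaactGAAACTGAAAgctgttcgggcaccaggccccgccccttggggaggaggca
Ifit1 (chr19:34640745-34640853, plus strand): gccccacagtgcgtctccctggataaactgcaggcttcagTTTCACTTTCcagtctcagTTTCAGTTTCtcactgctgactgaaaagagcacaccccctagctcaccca
Cxcl10 (chr5:92349053-92349139, minus strand): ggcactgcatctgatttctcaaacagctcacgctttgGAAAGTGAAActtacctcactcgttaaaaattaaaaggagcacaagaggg

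The core lies between 34 bases (Igtp) and 213 bases (Cxcl10) before the start, counted from its 5′ base on the strand of the gene, and Ifit3 and Ifit1 hold a pair of cores each. Igtp and Irgm2, GTPase genes on chromosome 11, share 72 of 74 bases over the stretch aligned on the core (97.3%), and Gbp2 and Gbp2b, on chromosome 3, share 40 of 99 (40.4%). A match to the core is a description of the letters and not evidence of binding.

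The share of genes with an ISRE core followed the size of the ratio. It was 16 of 30 genes (53.3%) at 16-fold or more, 23 of 72 (31.9%) at 4-fold to under 16-fold and 13 of 154 (8.44%) at 2-fold to under 4-fold. Among lower genes it was 4 of 131 (3.05%), and among all genes with a window 380 of 9887 (3.84%). Genes with 1 window alone gave 12 of 25 (48.0%), 15 of 48 (31.25%), 12 of 114 (10.5%), 2 of 99 (2.02%) and 258 of 7938 (3.25%) in the same order. The gamma-activated sequence (GAS), a Stat dimer site searched as TTCNNNGAA, was found in 20%, 18.1% and 8.44% of the 3 classes of higher genes, in 9.16% of lower genes and in 8.45% of all. AP-1 sites (TGANTCA) were found in 26.7%, 16.7% and 9.09% of the classes and in 7.69% of all genes, NF-kB sites (GGGANNTTC or GGGGNNTTC) in 20%, 11.1% and 11.04% and in 9.43% of all. Over the 256 higher genes together, the TATA box (TATAAA) was found in 16.4%, E2F sites (TTTNGCGC) in 3.52% and cAMP response elements (TGACGTCA) in 2.34%, against 11.9%, 2.6% and 2.99% of all genes. The smallest class holds 30 genes, neighbouring family members share promoter sequence, and no test was made.

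**Figure D3:**
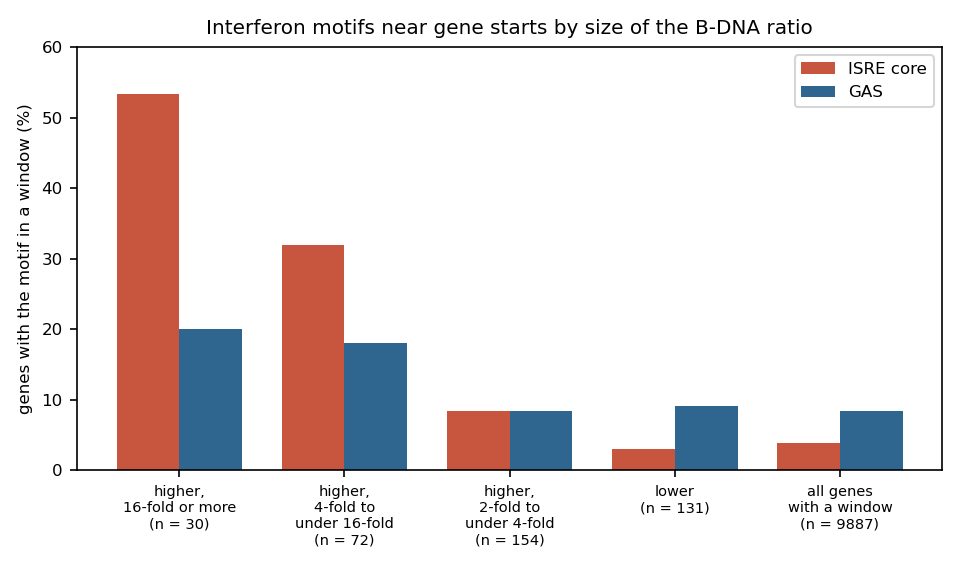
Bars give the percentage of genes with an ISRE core (red) or a GAS motif (blue) in a promoter window, by the size of the Ikbke-/- B-DNA over mock ratio, with the number of genes under each class. The ISRE share steps down through 53.3%, 31.9% and 8.44% in the higher genes and is 3.05% in lower genes, beside 3.84% of all genes.

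Higher genes were often neighbours on the chromosome. In gene order, 68 of the 342 (19.9%) had an adjacent array gene that was higher, against 5.32% of all 12375 placed genes. For lower genes it was 4 of 158 (2.53%), against 2.50% of all placed genes. The longest run of higher genes, on chromosome 19, was Fas, Ch25h, Lipa, Ifit2, Ifit3 and Ifit1. Runs of 4 were Gbp7, Gbp3, Gbp2b and Gbp2 on chromosome 3, the Ifi200 genes Ifi209, Ifi204, Mndal and Ifi202b on chromosome 1, and Psmb9, Tap1, Psmb8 and Tap2 in the major histocompatibility region of chromosome 17. Within such families, probe sets may bind RNA of near-identical relatives, and their ratios are not independent.

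Secreted signals divided into those counted and those not. Of 22 chemokine genes, 6 were higher (27.3%, against 2.76% of all genes) and none lower. Cxcl10, which attracts T cells, read 18387 after B-DNA and 392 after mock, 46.9-fold higher, and Ccl5, another T cell attractant, read 15614 after B-DNA and 795 after mock, 19.6-fold higher. Cxcl11, of the same receptor as Cxcl10, read 1375 after B-DNA and under the floor after mock, at least 11.3-fold higher. The monocyte attractants Ccl7 (5433 after B-DNA and 1377 after mock) and Ccl2 (13721 after B-DNA and 4724 after mock) were higher by 3.95-fold and 2.90-fold. Cxcl9, the third ligand of the Cxcl10 receptor, read 203 after B-DNA and under the floor after mock and was not counted. The neutrophil attractants Cxcl1 (278 after B-DNA and 485 after mock) and Cxcl2 (172 after B-DNA and 301 after mock) had lower signals after B-DNA within 2-fold.

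Of 30 cytokine and receptor genes, 8 were higher and 1 lower, against 2.76% and 1.27% of all genes. Without further scaling 5 were higher (not Il13ra1, Il15ra and Il18), and likewise 5 with the floor at the 50th percentile (not Il18bp, Il33 and Lifr) and 5 with no floor (not Il15ra, Il18 and Lifr). Il6, the acute-phase cytokine, read 772 after B-DNA and under the floor after mock, at least 6.32-fold higher. Il15, which sustains natural killer cells, was at least 3.42-fold higher, and its receptor chain Il15ra, at 1604 after B-DNA and 799 after mock, lay just inside the limit. Il33 (at least 2.57-fold higher) and Il18bp (at least 2.31-fold higher), an Il18 inhibitor, had mock signals under the floor. Il18 itself read 469.9 after B-DNA and 208 after mock. Lifr and Il13ra1 completed the 8, Lifr with a log2 ratio of 1.27 and Il13ra1 with 1.22. The lower gene was Il1r1, the receptor of interleukin 1, at 680.2 after B-DNA and 2719 after mock, 3.998-fold lower, the lowest ratio on the array. Its antagonist Il1rn read 4411 after B-DNA and 5086 after mock.

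In antigen presentation, counted genes spanned the route from peptide cutting to the cell surface. Of 14 genes of MHC class I presentation, 7 were higher (50%, against 2.76% of all genes) and none lower. With the median ratio of all probe sets 5 were higher, without Tap1 and H2-D1, and the list median was 0.41 in place of 1.08. Tap1 read 5701 after B-DNA and 356 after mock, 16.03-fold higher, and Tap2 1916 after B-DNA and 356 after mock, 5.38-fold higher; they encode the subunits of the peptide transporter. Tapbp, the chaperone tapasin, read 5744 after B-DNA and 1602 after mock, 3.59-fold higher, and its relative Tapbpl was at least 7.01-fold higher. Among heavy chains, H2-D1 read 9323 after B-DNA and 1896 after mock, 4.92-fold higher, H2-M3 945 after B-DNA and 199 after mock, 4.75-fold higher, and H2-K1 11372 after B-DNA and 5001 after mock, 2.27-fold higher. The light chain B2m, high in both, read 20277 after B-DNA and 15270.1 after mock, and the general chaperones Calr (10315 after B-DNA and 9529 after mock), Canx (3675 after B-DNA and 3668 after mock) and Pdia3 (7249.7 after B-DNA and 7412 after mock) differed little.

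In the proteasome, counted genes were those of the immune form. Of 5 genes of the immunoproteasome and its activator, 4 were higher. Psmb9 was at least 18.4-fold higher, Psmb8 read 3537 after B-DNA and 348 after mock, 10.2-fold higher, Psmb10 read 3222 after B-DNA and 631 after mock, 5.10-fold higher, and Psme1, of the activator ring, read 4889.6 after B-DNA and 1644 after mock, 2.97-fold higher. Of 29 constitutive proteasome genes none was counted in either direction, and their median log2 ratio was -0.26. Psmb6, the constitutive subunit that Psmb9 replaces, read 1808 after B-DNA and 2559 after mock, and Psmb7, which Psmb10 replaces, read 5962 after B-DNA and 6665 after mock. In class II presentation 1 of 7 genes was higher, Cd74, the invariant chain, at 434 after B-DNA and 208 after mock, and it was not counted without further scaling.

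Few genes of the NF-kB list were counted, at a share above that of all genes. Of 33 subunits, inhibitors and targets, 3 were higher (9.09%, against 2.76% of all genes) and none lower, and the median was 0. At 1.5-fold 8 were higher and none lower, against 617 and 755 of all 12393 genes, and without further scaling 2 were higher. Irf1, also driven by NF-kB, stands on another list. The collagenase gene Mmp13 was at least 4.63-fold higher, the inhibitor of apoptosis gene Birc2 read 773 after B-DNA and 301 after mock, 2.56-fold higher, and the adhesion molecule gene Vcam1 read 5384 after B-DNA and 2555 after mock, 2.11-fold higher. A pair of other Vcam1 probe sets had log2 ratios of 0.98 and 0.73. The feedback inhibitors Nfkbia (11949 after B-DNA and 8979 after mock) and Tnfaip3 (453 after B-DNA and 242 after mock) were not counted, nor was Rela (3943 after B-DNA and 2978 after mock).

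Immediate early genes, which answer growth factors within minutes, were counted as lower in 4 of 33 cases, against 1.27% of all genes, and as higher in 1. In the other genotypes 4 were lower in WT cells, 5 in Tbk1-/- cells and 0 in Tbk1-/- Ikbke-/- cells, against 1.47%, 0.315% and 0.581% of all genes. The list median was 0 in Ikbke-/- cells, -0.15 in WT cells, -0.46 in Tbk1-/- cells and 0.04 in Tbk1-/- Ikbke-/- cells. Fos, a subunit of the AP-1 factor, read 1600.3 after B-DNA and 3563 after mock, 2.23-fold lower, and its relative Fosb read 675 after B-DNA and 1321 after mock, just short of the limit. The nuclear receptor gene Nr4a1 (947 after B-DNA and 2151 after mock) and the growth factor gene Ereg (765 after B-DNA and 1718 after mock) were 2.27-fold lower and 2.25-fold lower. The small Maf factors pointed opposite ways, with Maff at 226 after B-DNA and 585 after mock, 2.59-fold lower and Mafk at 1839 after B-DNA and 553 after mock, 3.32-fold higher. Egr1 (7115 after B-DNA and 7269 after mock) and Jun (3826 after B-DNA and 3557 after mock) hardly differed. Of 20 genes of the Dusp and Sprouty families, which dampen kinase signalling, 2 were lower, against 1.27% of all genes, and none was higher. Dusp14 read 557 after B-DNA and 1189 after mock, 2.14-fold lower, and Spred2 read 665 after B-DNA and 1331 after mock.

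Genes of cell death were counted in the upward direction alone. Of 31 genes of apoptosis and death receptors, 7 were higher (22.6%, against 2.76% of all genes) and none lower. Casp4, which encodes the mouse caspase 11 that detects intracellular lipopolysaccharide, read 946 after B-DNA and 131 after mock, 7.21-fold higher, and Casp12, of the same caspase cluster, read 1818 after B-DNA and 359 after mock, 5.07-fold higher. The death receptor gene Fas read 1015 after B-DNA and 215 after mock, 4.72-fold higher, and Tnfsf10, the ligand TRAIL, was at least 4.01-fold higher. Apaf1, which assembles the apoptosome, read 769 after B-DNA and 349 after mock. Bcl2l11 (563 after B-DNA and 241 after mock) and Bad (581 after B-DNA and 195 after mock) encode killers of the Bcl2 family, and other probe sets gave log2 ratios of 0.84 and at least 1.07 for Bcl2l11 and of 0.42 for Bad. Initiator caspase gene Casp8 read 841 after B-DNA and 765 after mock, and the survival gene Mcl1 read 2474 after B-DNA and 2806 after mock.

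Of 23 targets of p53, 4 were higher and 1 lower, against 2.76% and 1.27% of all genes. Tap1 and Fas are shared with the lists above, and the other 2 were Trp53inp1 (1370.5 after B-DNA and 509 after mock) and Bbc3 (525 after B-DNA and 237 after mock), which encodes the cell death activator Puma. The classical targets Cdkn1a, a cell cycle inhibitor (8157 after B-DNA and 4597 after mock), and Mdm2, which degrades p53 (2316 after B-DNA and 1554 after mock), had higher signals within 2-fold. Sesn1, an antioxidant gene, was the lower one at 158 after B-DNA and 346 after mock. Among 41 cell cycle genes, Ccne1, the cyclin of entry into S phase, read 638 after B-DNA and 143 after mock, 4.47-fold higher, while its kinase partner Cdk2 read 146 after B-DNA and 301 after mock, 2.06-fold lower. The other 39 were not counted, with Mki67 at 207 after B-DNA and 339 after mock and Ccnd1 at 5663 after B-DNA and 6695 after mock. The 1 higher gene made up 2.44% of the list, near the 2.76% of all genes.

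Genes of cholesterol synthesis mostly had lower signals after B-DNA, and few passed 2-fold. Of 27 genes, 21 had a log2 ratio below 0, 2 were counted as lower and 1 as higher, with a median of -0.41. Of all genes 1.27% were lower and 2.76% higher. The list median was -0.24 in WT cells, -0.36 in Tbk1-/- cells and -0.06 in Tbk1-/- Ikbke-/- cells, so it was below 0 in Tbk1-/- cells too. Msmo1, which removes methyl groups from the sterol ring, read 1964 after B-DNA and 6651 after mock, 3.39-fold lower, and Lss, which closes the ring, read 444 after B-DNA and 1057 after mock, 2.38-fold lower. Another Lss probe set had a log2 ratio of -0.98. Hmgcs1, an early enzyme of the route, read 6969 after B-DNA and 12083 after mock, and Sqle read 1908 after B-DNA and 3511 after mock. The higher gene was Ch25h, whose enzyme makes 25-hydroxycholesterol, an oxysterol that restrains this pathway and viral entry, at 836 after B-DNA and 236 after mock, 3.54-fold higher. Without further scaling 8 of the 27 were counted as lower, so the count depends on the scaling. The median of all measured genes was -0.10, and 3997 of 6413 genes at the minimum signal had a ratio below 0. None of 13 fatty acid synthesis genes was counted, and their median was -0.26.

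The sterol regulatory element, the site of the Srebp factors, was searched as TCACNCCAC on either strand. It was found in 1.5% of all genes with a window and in 1 of the 22 cholesterol genes, Hmgcs1. The Hmgcs1 stretch is shown, with the motif in capitals, because no other gene of that list had a match.
Hmgcs1 (chr13:119690174-119690262, plus strand): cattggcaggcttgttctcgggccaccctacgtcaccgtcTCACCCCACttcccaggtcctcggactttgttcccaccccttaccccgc

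Developmental signalling genes were counted in both directions. Of 35 genes of Tgf-beta, Bmp and Wnt signalling, 4 were higher and 4 lower, against 2.76% and 1.27% of all genes. Inhba, the subunit of activin A, read 573 after B-DNA and 1918 after mock, 3.35-fold lower, while Inhbb, the subunit of activin B, read 284 after B-DNA and 129.5 after mock. The receptor gene Tgfbr1 (285 after B-DNA and 574 after mock), the mesenchymal factor Foxc2 (548 after B-DNA and 1249 after mock) and Gas1 (1915 after B-DNA and 3831 after mock), a co-receptor of hedgehog proteins, were the other lower genes. Wnt5a, a Wnt ligand (438 after B-DNA and 215 after mock), Fzd7, a Wnt receptor (762 after B-DNA and 351 after mock), and Foxf1 (277 after B-DNA and under the floor after mock) were the other higher ones. Other probe sets of Inhbb and Gas1 stayed within 2-fold, with log2 ratios of 0.31 for Inhbb and -0.62 for Gas1. Without further scaling, and likewise with the median of all probe sets of a gene, 1 of these 4 was higher, and 2 of the 4 lower genes were lower with quantile normalization or with the median of probe sets.

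Of 28 growth factor genes and receptors, 1 was lower, the receptor Pdgfra at 914 after B-DNA and 2147 after mock, 2.35-fold lower. Its relative Pdgfrb read 457 after B-DNA and 396 after mock, but another Pdgfrb probe set read 234.6 after B-DNA and 390.5 after mock. Met, the receptor of Hgf, read 326 after B-DNA and 603 after mock. In the matrix, 1 of 38 genes was higher (2.63%, against 2.76% of all genes). It was Has2, which makes hyaluronan, at 2633 after B-DNA and 675 after mock, 3.90-fold higher. On each array 37 of the 38 reached 244, while 6413 of all 12393 genes reached it on either. The matrix share therefore lies below that of the genes that could be counted. Collagen signals barely differed, with Col1a1 at 24624 after B-DNA and 23144 after mock and Col3a1 at 15031 after B-DNA and 13894 after mock. Among 18 matrix proteases and inhibitors, Mmp13, a collagenase, and Plat, the plasminogen activator (752 after B-DNA and 374 after mock), were higher.

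Of 11597 genes on no list, 216 (1.86%) were higher and 141 lower. The lowest ratios after Il1r1 belonged to genes of varied roles, on and off the lists. Dnajc1, a co-chaperone of the endoplasmic reticulum, read 177 after B-DNA and 665 after mock, 3.77-fold lower, though it is not counted when the median of its probe sets is used. Nptx1, a pentraxin, read 181 after B-DNA and 575 after mock, 3.17-fold lower, Sstr2, a somatostatin receptor, read 152 after B-DNA and 459 after mock, 3.02-fold lower, and Gas2, a cytoskeletal protein, read 128 after B-DNA and 389 after mock, 3.05-fold lower. Psmg2, a proteasome assembly chaperone, read 285 after B-DNA and 859 after mock, 3.02-fold lower. Sema7a, a membrane-bound semaphorin, read 632 after B-DNA and 1839.6 after mock, 2.91-fold lower, though it too is not counted when the median of its probe sets is used. Where the B-DNA signal lay under the floor, Dmp1, a mineralised matrix protein, was at least 3.60-fold lower, Chst1, a sulphotransferase, at least 3.46-fold lower, and Fgf18, a growth factor of bone and lung, at least 3.20-fold lower.

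Some systems gave no counted gene at the settings used. None of 24 genes of glycolysis and hypoxia, 30 of the unfolded protein and amino acid response, 13 of oxidative stress, 21 of the contractile apparatus or 13 ribosomal protein genes reached 2-fold with the minimum signal in either direction. In the oxidative stress list, 2 genes were lower without further scaling and 1 when scaled to the median, with quantile normalization or with the floor at the 30th percentile. Srxn1, an antioxidant gene of that list, read 1975 after B-DNA and 3774 after mock, a log2 ratio of -0.93, and its other probe sets gave -1.08, -1.05 and 0.33. The medians of the 5 lists were -0.14, 0.05, -0.22, 0 and -0.06 in that order. Hspa5, the main chaperone of the endoplasmic reticulum, read 14012 after B-DNA and 12917 after mock, Hmox1, an oxidative stress gene, read 11213 after B-DNA and 9960.3 after mock, and Acta2, smooth muscle actin, read 18914 after B-DNA and 18437 after mock. In the heat shock list Dnajc1 was the 1 of 20 that was counted. The leukocyte, endothelial, epithelial, neural and muscle marker lists also held no counted gene at these settings, and these genes were mostly under the minimum.

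**Figure D4:**
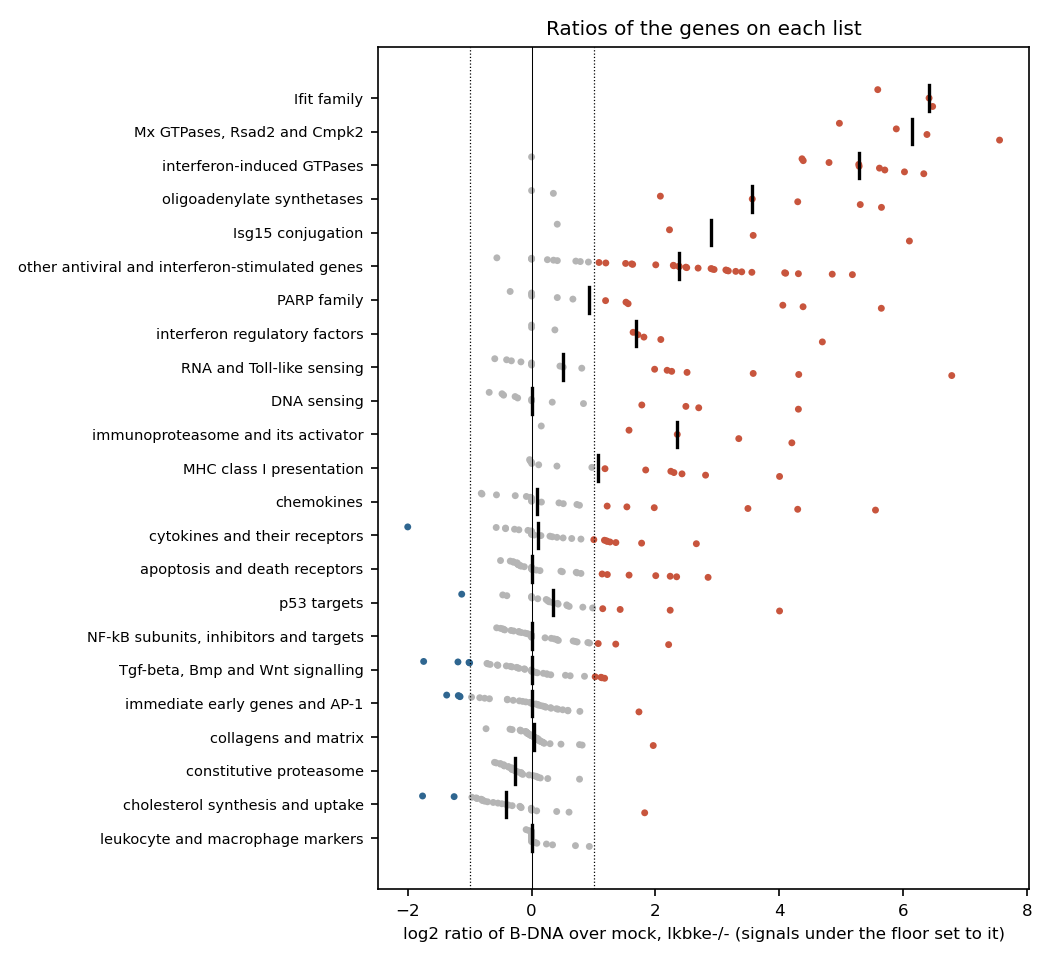
Each point is 1 gene of a list, placed by its log2 ratio of B-DNA over mock in Ikbke-/- cells with signals under the floor set to it; red points were counted as higher, blue as lower, grey points were not counted, black bars are list medians and dotted lines mark 2-fold. The effector lists have medians between 2.38 and 6.42, the constitutive proteasome list has no red or blue point, and the cholesterol list has its median at -0.41.

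The same genes were read in the other genotypes, each pair with its own mock array. Of the 342 genes higher in Ikbke-/- cells, 5 were also higher in Tbk1-/- Ikbke-/- cells, 5 in Tbk1-/- cells and 230 in WT cells. In all, 52 genes (0.42%) were higher in Tbk1-/- Ikbke-/- cells and 28 (0.226%) in Tbk1-/- cells, so the shared genes are 9.62% and 17.9% of those lists and 1.46% of the Ikbke-/- list in each case. The median log2 ratio of the 342 genes was 1.64 in Ikbke-/- cells, 0 in Tbk1-/- Ikbke-/- cells, 0 in Tbk1-/- cells and 1.33 in WT cells. The 230 genes are 67.3% of the Ikbke-/- list and 73.0% of the 315 genes higher in WT cells (2.54% of all genes). The 5 shared with Tbk1-/- Ikbke-/- cells were Ccl2, Ccl7, Irf1, Irf5 and Samhd1, and the 5 shared with Tbk1-/- cells were Arsi, C1qtnf1, Cpne2, Ctnnd1 and Cxcl10. Irf7 had a log2 ratio of 4.69 in Ikbke-/- cells, -0.50 in Tbk1-/- Ikbke-/- cells, -0.13 in Tbk1-/- cells and 4.27 in WT cells. Ccl2, the monocyte attractant, had 1.54 in Ikbke-/- cells, 1.04 in Tbk1-/- Ikbke-/- cells, -0.50 in Tbk1-/- cells and 1.24 in WT cells. The chemokines Cxcl9 and Cxcl1 followed neither course. For Cxcl9 the ratio was 0.73 in Ikbke-/- cells, 0 in Tbk1-/- Ikbke-/- cells, 0 in Tbk1-/- cells and 4.46 in WT cells, and its higher signal in Ikbke-/- cells is short of 244. For Cxcl1 it was -0.80 in Ikbke-/- cells, 3.05 in Tbk1-/- Ikbke-/- cells, -0.09 in Tbk1-/- cells and 1.38 in WT cells. Averaged over Tbk1+/+ and Tbk1-/- cells, the difference with the Ikbke genotype was -1.86 (SE 0.77, adjusted p = 0.978 by limma) for Cxcl9. For Cxcl1 this average was 0.48 (SE 1.08, adjusted p = 0.999 by limma). It joins opposite differences, since the Cxcl1 ratio was lower in Ikbke-/- than in WT cells and higher in Tbk1-/- Ikbke-/- than in Tbk1-/- cells.

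Lower genes were compared in the same way. Of the 158 genes lower in Ikbke-/- cells, 3 were lower in Tbk1-/- Ikbke-/- cells, 6 in Tbk1-/- cells and 36 in WT cells, which is 22.8% of the Ikbke-/- list and 19.8% of the 182 genes lower in WT cells (1.47% of all genes). The lower genes numbered 72 (0.581%) in Tbk1-/- Ikbke-/- cells and 39 (0.315%) in Tbk1-/- cells, of which the shared ones are 4.17% and 15.4%. Medians of the 158 genes were -1.17 in Ikbke-/- cells, 0.02 in Tbk1-/- Ikbke-/- cells, -0.07 in Tbk1-/- cells and -0.65 in WT cells. Many genes lay near the limit in Ikbke-/- cells, 104 within 0.1 log2 inside it and 107 within 0.1 outside.

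The 8 arrays together allow 1 test across pairs. A linear model (limma) with a term for each genotype asked of 9626 genes whether the B-DNA response differed with the Ikbke genotype or with the Tbk1 genotype, with 1 residual degree of freedom per gene and a spread shared across genes. Each difference is an average over both genotypes of the other gene. The 1 degree of freedom left is the part of the response that depends on Tbk1 and Ikbke jointly. The p-values set a difference against that joint part, which may itself be a response of the cells, and not against a spread between cultures. Nothing says that the arrays came from separate cultures. Xist and leukocyte signals differ between genotypes too, so genotype and source of the cells cannot be told apart. With Ikbke, 0 genes passed (0%, lowest adjusted p = 0.978 by limma), and 435 had an unadjusted p under 0.05. The 435 make up a share of the 9626 genes below 0.05, the share reached where no response differs. Having no gene pass does not show that the responses are alike, since a difference would have to exceed the spread of 1 degree of freedom.

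With Tbk1, limma called 176 genes (1.83%) with a lower response in Tbk1-/- cells and 23 (0.239%) with a higher one. The Ikbke-/- pair enters this fit, so an overlap with its counted genes is not independent: 168 of the 342 higher genes were among the 176 and 15 of the 158 lower genes among the 23. The difference of log2 ratios, Tbk1-/- minus Tbk1+/+, was -4.80 (SE 0.28, adjusted p = 7.53e-04 by limma) for Irf7 and -3.77 (SE 0.28, adjusted p = 0.00198 by limma) for Tap1. Among lower genes it was 1.54 (SE 0.23, adjusted p = 0.03 by limma) for Inhba, 1.34 (SE 0.23, adjusted p = 0.0467 by limma) for Msmo1 and 1.499 (SE 0.25, adjusted p = 0.0419 by limma) for Pdgfra. By list, limma called 9 of 10 GTPase genes, 20 of 37 other antiviral genes, 7 of 14 genes of class I presentation and 4 of 5 immunoproteasome genes as lower in response. These calls depend on the settings: with no filter on low genes, or with the median ratio of all probe sets of a gene, limma called 0 genes in either direction, with 1553 and 1349 genes at an unadjusted p under 0.05.

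**Figure D5:**
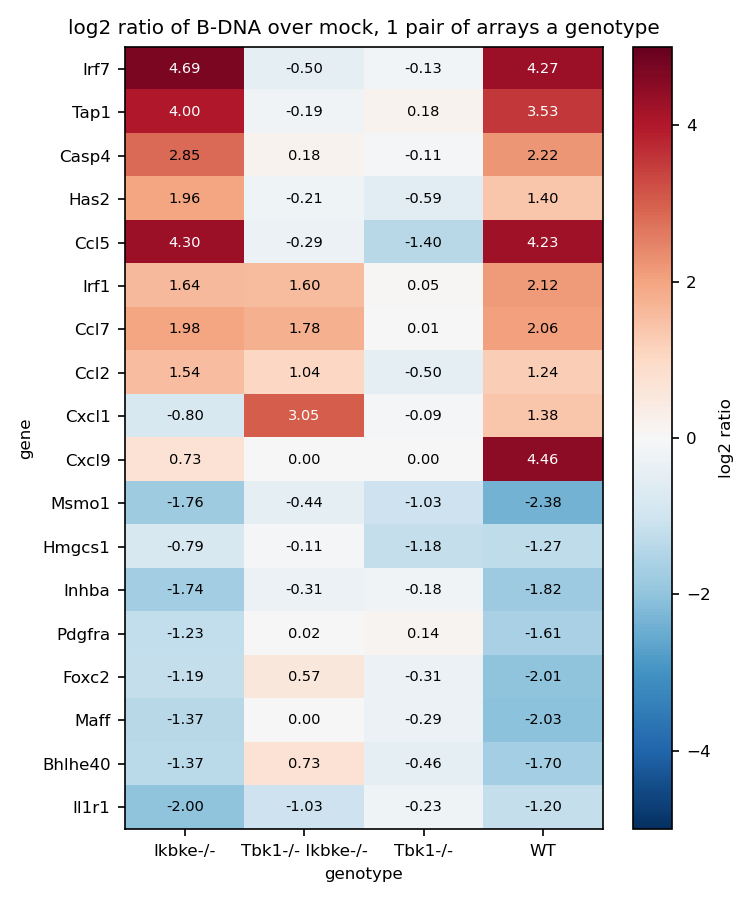
Each cell gives the log2 ratio of B-DNA over mock, from 1 pair of arrays, for 1 of 18 genes (rows) in the 4 genotypes (columns), with red for higher and blue for lower after B-DNA. Irf7, Tap1, Casp4 and Has2 are red in Ikbke-/- and WT cells and near 0 or below in both Tbk1-/- genotypes, Ccl2, Ccl7 and Irf1 are red in Tbk1-/- Ikbke-/- cells too, and Cxcl1 is red in Tbk1-/- Ikbke-/- and WT cells.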

How the data were processed

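The authors' deposited values are array signals, intensities on a linear scale, made with Microarray Suite 5.0 per the submitters' processing notes; the design text names an array type that the probe sets do not match. The 8 arrays, 1 per genotype and treatment, were scaled here to a trimmed mean of 500 (2% trimmed) over 22626 probe sets without controls. Of these, 20380 had 1 gene symbol, 691 several and 1555 none; each of 12393 genes took its probe set with the highest mean signal. The floor is the 40th percentile of all scaled values. Log2 ratios and folds of the deposited intensities were computed with pandas 2.3.3, and limma 3.58.1 in R 4.3.3, tested on simulated data, gave two-sided p-values with Benjamini-Hochberg adjustment and a threshold of 0.05. Depth does not apply to arrays, whose number limits the precision. Genes and gene lists were chosen with earlier results of these data known. Named are the 20 highest and 20 lowest measured ratios, the 15 highest bounds upward and 10 downward, members of short lists with the extreme members of longer ones, and genes at the limit; others were chosen after their values were seen. Scaling, floor, gene summary and thresholds were varied.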

Additional observations from a re-analysis of the deposited data

Results flagged for a closer look

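The difference of the B-DNA response between Tbk1-/- and Tbk1+/+ pairs passed the test for 176 genes with a lower response in Tbk1-/- cells and 23 with a higher one (limma, Benjamini-Hochberg). Genes with a lower response included Irf7, whose log2 ratios differed by -4.80 (SE 0.28, adjusted p = 7.53e-04 by limma), and the peptide transporter gene Tap1, with -3.77 (SE 0.28, adjusted p = 0.00198 by limma). The caspase gene Casp4 had -2.50 (SE 0.24, adjusted p = 0.00538 by limma), and the hyaluronan synthase gene Has2 had -2.08 (SE 0.23, adjusted p = 0.00941 by limma). Higher responses, of genes that were lower after B-DNA in Ikbke-/- cells, were found for the activin gene Inhba, with 1.54 (SE 0.23, adjusted p = 0.03 by limma), the forkhead gene Foxc2, with 1.73 (SE 0.23, adjusted p = 0.0182 by limma), and the receptor gene Pdgfra, with 1.499 (SE 0.25, adjusted p = 0.0419 by limma). The sterol enzyme gene Msmo1 had 1.34 (SE 0.23, adjusted p = 0.0467 by limma), Maff had 1.56 (SE 0.24, adjusted p = 0.0326 by limma), and Bhlhe40, a clock-linked repressor, had 1.67 (SE 0.29, adjusted p = 0.0466 by limma). Bhlhe40 read 1014 after B-DNA and 2616 after mock in Ikbke-/- cells. Groups of 1 array allow no search for outlying samples.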

How the results depend on the processing

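The count of higher genes was 617 at 1.5-fold and 179 at 3-fold, and that of lower genes 755 at 1.5-fold and 12 at 3-fold. Lower genes numbered 425 without further scaling, 103 with the floor at the 50th percentile, 84 with no floor and 64 added before the log, and 104 with the median of all probe sets of a gene. Under the other alternatives both counts stayed within 1.5 times. Of the 342 higher genes, 269 kept their call without further scaling, 337 with quantile normalization and 299 with the median of probe sets. Of the 158 lower genes, 122 kept it with quantile normalization and 99 with the median of probe sets. The limma count of genes with a lower response in Tbk1-/- cells was 0 with no filter on low genes, 99 without the Ikbke term, 100 without further scaling and 0 with the median of probe sets. The count with a higher response was 0 with no filter, 83 over genes above the floor on all arrays, 5 without the Ikbke term, 10 scaled to the median, 13 with the floor at the 30th percentile and 0 with the median of probe sets. The prior degrees of freedom of the fit were 5.34 in the main setting, 0.421 with no filter and 1.33 with the median of probe sets. No counted gene among those named changed sign under these settings. Other probe sets of counted genes were compared too. For 99 higher genes there were 139. Of these, 104 were higher by 2-fold or more, 33 had the same sign under 2-fold and 2 the other sign. For 29 lower genes there were 41. Of these, 8 were lower by 2-fold or more, 29 had the same sign under 2-fold and 4 the other sign. Most other probe sets of lower genes thus fell short of 2-fold. Higher calls outnumbered lower ones in every setting but 2, no further scaling (271 against 425) and 1.5-fold. Without further scaling 4 list medians that had been above 0 fell below 0. They were those of the Jak-Stat inhibitors (-0.22), the unfolded protein response (-0.18), the collagens (-0.19) and the fibroblast markers (-0.14). Further list medians that had been at 0 fell below it as well. Among them were Tgf-beta, Bmp and Wnt signalling (-0.20), the cell cycle (-0.19), the contractile genes (-0.17), the neural markers (-0.13) and the immediate early genes (-0.13). Of values for named genes under an alternative 4760 held and 175 moved, and of counts within lists 806 held and 114 moved. The counts of 1 or 2 genes in the Dusp, cell cycle, p53, heat shock, growth factor and protease lists moved by more than 1.5 times under 1 or more alternatives. The causes were not tested. The promoter share over genes with 1 window was added after seeing the data. No paired analysis was possible because each group is 1 array. Signals near or under the floor carry bounds only, and no ratio of the Ikbke-/- pair has a replicate check.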

Other observations

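Genes of nucleolar ribosome making were chosen after their values were seen, so their counts carry no test. Over the Polr1 (RNA polymerase I), Nop, Utp and Rrp families, 28 genes reached the minimum signal, 26 had a log2 ratio below 0 in Ikbke-/- cells, 4 were counted as lower and none as higher. Over all 6413 genes at the minimum, 3997 had a ratio below 0. The median of the 28 genes was -0.54 in Ikbke-/- cells, 0.04 in Tbk1-/- Ikbke-/- cells, -0.05 in Tbk1-/- cells and -0.48 in WT cells, and that of all genes at the minimum was -0.12 in Ikbke-/- cells. Polr1b read 225 after B-DNA and 513 after mock, and Nop16 read 462 after B-DNA and 1057 after mock. Nolc1, a nucleolar phosphoprotein outside these families, read 488 after B-DNA and 1174 after mock. All of these signals are on the scaled arrays, and the 13 ribosomal protein genes had a median of -0.06.

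Several higher genes stand on no list, and these too were picked after their values were seen. Serpinb9, an inhibitor of granzyme B, read 3096 after B-DNA and 344 after mock. The cytidine deaminase genes Apobec1 and Apobec3 read 1038 after B-DNA and 157 after mock and 1416 after B-DNA and 240.1 after mock. The lipid carrier gene Apod read 1848 after B-DNA and 208 after mock, 8.87-fold higher, and Tgm2, a transglutaminase, read 6081 after B-DNA and 1332 after mock, 4.56-fold higher. Neither deaminase gene was counted in Tbk1-/- cells, where the log2 ratios were 0 for Apobec1 and 0 for Apobec3, and in WT cells they were 1.28 and 1.83.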
